A study of Mus musculus with 12 samples.

Results

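Keratins and the other genes of squamous epithelium were followed through the colon mucosa of 12 mice. The members were all genes on the array whose symbol is a keratin (Krt followed by a number, without the colonocyte keratin Krt20 and the keratin-associated proteins) or a small proline-rich protein (Sprr), together with Lor, Ivl, Ly6d, Sfn, Dsg3, Dsc3 and Trp63. Through RefSeq accessions, 55 member genes (61 probes) were found among 32970 genes on the array. They comprised 4 simple keratins, 20 keratins of stratified epithelium, 12 hair and inner root sheath keratins, 2 other keratins, 13 cornified envelope genes, and the 4 genes Ly6d, Sfn, Dsg3 and Trp63. The 51 members outside the simple keratins are called squamous genes below.

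Keratins are the intermediate filament proteins of epithelial cells and work as pairs of a type I and a type II chain. Krt8, Krt18 and Krt19 form the filaments of simple epithelia such as that of the colon, and Krt7 is a simple keratin of ducts and bladder. Stratified epithelia use Krt5 with Krt14 in their basal layer and other pairs above it, such as Krt1 with Krt10 in the epidermis and Krt4 with Krt13 in the oesophagus. In the outermost layers, loricrin (Lor), involucrin (Ivl) and the small proline-rich proteins are cross-linked into the cornified envelope, and Trp63 encodes the transcription factor that maintains the basal cells of such epithelia.

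All mice were C57BL/6 recipients without a deletion of their own that had received bone marrow of C57BL/6 donors. The donors were either wild type (WT marrow) or lacked Muc1 (KO marrow), a gene for a membrane mucin. Only cells derived from donor marrow could therefore carry the deletion, and the epithelium in which keratins are made was that of the recipient in every group. How many blood cells of the recipients remained is not given in the labels. Treated mice had been injected in the abdomen with the colon carcinogen azoxymethane (AOM, 12.5 mg/kg) and, 5 days later, drank dextran sodium sulfate (DSS), which injures the colon epithelium, at 2% for 4 days and then water for 14 days. This was repeated, a last course of 2.5% DSS for 5 days followed, and the colons were taken 1 day later. The 4 groups (untreated WT marrow, untreated KO marrow, treated WT marrow and treated KO marrow) held 3 mice each, and the scraped mucosa of each mouse was hybridised to 1 single-colour array.

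Each value below is a log2 processed signal minus the 75th percentile of its array, so that a gene at 0 was as bright as that percentile. The percentile itself was 153 on the array of treated WT-marrow mouse 3, the dimmest, and 332 to 768 on the other 11. Between 58.4% and 78.7% of gene spots were well above background, and none was saturated. The arrays lay on 3 slides: slide 1 held the 3 untreated WT-marrow mice and untreated KO-marrow mouse 1, slide 2 held untreated KO-marrow mice 2 and 3, treated WT-marrow mouse 3 and treated KO-marrow mouse 3, and slide 3 held the other 4 treated mice. Slide 3 was scanned on another day than slides 1 and 2, and its arrays had 491 to 767 spots marked as non-uniform, against 4 to 51 on the other 8 arrays. Because no slide held both WT-marrow groups, treatment values are given below also from a fit with slide as a block. Slide 1 shared a group with another slide only through untreated KO-marrow mouse 1, so its offset in that fit rests on this mouse. Treatment values with WT marrow from the block therefore depend on this KO-marrow mouse and are not a slide-corrected effect from WT-marrow mice alone. Of 10 colonocyte and general epithelial markers, 10 were on at least 1 array well above background, and their summed signal spanned 9.78 to 11.10 on the log2 scale over the 12 arrays. Muc1 itself was at -1.5, -1.72 and -2.25 in untreated WT-marrow and at -2.12, -2.90 and -3.8 in untreated KO-marrow mice. In treated mice it was at -2.17, -1.47 and -3.53 with WT marrow and at -2.30, -0.99 and -2.41 with KO marrow. With this probe, the brighter of 2, Muc1 did not differ past the threshold between the marrows in untreated (-1.11 ± 0.60 SE, adjusted p = 0.425) or treated mice (0.49 ± 0.60, adjusted p = 1). The second probe was well above background on 10 arrays. In untreated mice it was at -4.545, -6.01 and -4.06 with WT marrow and at -3.78, -3.23 and -3.96 with KO marrow. The 2 probes thus disagree in direction there. In treated mice the second probe was at -2.37, -1.34 and -6.10 with WT marrow and at -2.765, -1.25 and -2.22 with KO marrow. As the recipients' own Muc1 was intact, neither probe is a check of the labels.

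The Sprr2 genes lie side by side on mouse chromosome 3 and are related in sequence, and their probes did not behave alike (below). The promoters of 6 of them are shown because they carry the same elements. The 120 bases before the transcription start follow, from RefSeq (GRCm38.p6, plus strand), at chr3:92316585-92316704 for Sprr2b, chr3:92339020-92339139 for Sprr2d, chr3:92352023-92352142 for Sprr2e, chr3:92365067-92365186 for Sprr2f, chr3:92385565-92385684 for Sprr2h and chr3:92432462-92432581 for Sprr2k. Capitals mark the octamer ATGCAAAT, which reads ATTTGCAT on this strand, and the TATA box TATAAA.
Sprr2b: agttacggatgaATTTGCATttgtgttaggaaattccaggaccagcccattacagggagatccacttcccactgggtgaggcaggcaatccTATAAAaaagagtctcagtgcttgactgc
Sprr2d: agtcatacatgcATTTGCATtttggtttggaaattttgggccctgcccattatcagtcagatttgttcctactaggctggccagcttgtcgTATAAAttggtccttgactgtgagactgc
Sprr2e: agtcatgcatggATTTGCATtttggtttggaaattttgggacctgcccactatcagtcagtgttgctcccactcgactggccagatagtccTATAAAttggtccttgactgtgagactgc
Sprr2f: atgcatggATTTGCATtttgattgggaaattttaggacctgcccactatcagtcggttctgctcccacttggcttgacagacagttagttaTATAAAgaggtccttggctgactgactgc
Sprr2h: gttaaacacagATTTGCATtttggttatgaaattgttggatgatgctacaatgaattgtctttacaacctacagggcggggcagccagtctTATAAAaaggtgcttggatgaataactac
Sprr2k: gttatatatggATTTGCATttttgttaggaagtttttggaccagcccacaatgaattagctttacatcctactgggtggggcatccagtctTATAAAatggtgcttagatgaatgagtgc

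Counted from the transcription start, the octamer began at -108 to -112 in the 6 promoters, and the TATA box at -29. Searched on both strands of the 120 bases, the octamer was found in these 6 of 38 member genes that had a promoter in the table (15.8%) and in 0.791% of 32851 mouse promoters. TATAAA was found in 20 of 38 members (52.6%), against 6.34% of all promoters. Over 250 bases, the AP-1 element TGANTCA was in 11 of 38 members (28.9%), these 6 among them, against 6.75% of all promoters. The ETS element CCGGAAGT (2.88% of all promoters) and the core of the interferon-stimulated response element (2.98%) were in none of the 38. Sprr2d and Sprr2e were identical at 88.0% of 250 bases, and Sprr2h and Sprr2k at 81.2%. Sprr2a1, a further member of the family, had none of the 3 elements in its promoter, which was identical to those of the 6 at 40.0% to 45.2% of bases. These matches are a description of the sequence and not of binding.

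Simple and squamous genes separated first in how reliably they were detected. The 4 simple keratins were well above background on every array. Of the 20 stratified keratins, 11 were so on all 12 arrays and 9 on 1 to 11, and of the 12 hair keratins 1 was on all 12, 8 on some and 3 on none. Of the 13 cornified envelope genes, 6 were well above background on all 12 arrays, 6 on some (Ivl on 1). Sprr1b was well above background on none. The range of a gene over the 12 arrays had a median of 1.43 on the log2 scale for simple keratins, 2.93 for stratified keratins, 3.21 for hair keratins and 3.33 for cornified envelope genes. Over all genes it was 1.83 for the 66% well above background everywhere and 3.37 for the 34% that were not. As a whole, 43 of 55 members passed the filter on dim probes (3 of 3 arrays of some group well above background), 24 of them through every group. Krt2, Krt4, Krt27, Krt76, Krt222 and Sprr3 passed only through the untreated WT-marrow group, where they had to be bright, and Krt71 and Sprr2f only through the treated WT-marrow group. The 12 members that did not pass were Dsg3, Ivl, Krt1, Krt6a, Krt25, Krt26, Krt31, Krt33a, Krt79, Krt82, Sprr1b and Trp63.

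The first question was what AOM and DSS treatment did to these genes. In WT-marrow mice, 6 of the 43 members passed the threshold (limma, Benjamini-Hochberg adjusted p under 0.05 over all genes), 2 higher and 4 lower in treated mice. This share was close to that of all genes, of which 13.8% were called (3.60% higher and 10.2% lower). The 2 that rose were Ly6d and Sfn, and the 4 that fell were Krt35, Krt76, Lor and Sprr2d. Apart from Ly6d these calls depended on the processing: Sfn was called in 10 of 23 alternatives, Krt35 in 10 of 22, Krt76 and Sprr2d in 14 of 22 and Lor in 9 of 23. In KO-marrow mice, 1 member was called, Ly6d, against 3.16% of all genes (1.85% higher). Without adjustment, 18 members in WT-marrow and 4 in KO-marrow mice had p under 0.05, against 33.0% and 14.5% of all genes. The 18 include Krt4, Krt27, Krt76, Krt222 and Sprr3, which passed the filter only through the untreated WT-marrow group and so had to be bright there. The median change of all genes was -0.24 in WT-marrow and -0.11 in KO-marrow mice, and changes are read beside these values.

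Ly6d had the largest change of the 43 members in both treatment comparisons. It encodes a small surface protein anchored in the membrane that is made by keratinocytes of stratified epithelia and, in the marrow, by early B lineage cells. In untreated mice it was at -0.70, 0.73 and -1.91 with WT marrow and at 0.17, -2.27 and -2.73 with KO marrow. In treated mice it was at 3.83, 3.04 and 3.80 with WT marrow and at 2.88, 3.18 and 3.57 with KO marrow. Every treated mouse was above every untreated one, and the untreated mice were spread more widely than the treated ones. Ly6d rose by 4.19 ± 0.71 (SE) with WT marrow (18.2-fold, adjusted p = 0.00632) and by 4.82 ± 0.71 with KO marrow (28.2-fold, adjusted p = 0.00255). With slide as a block the changes were 7.16 (adjusted p = 0.0160) and 6.01 (adjusted p = 0.00107), and within slide 2, the one slide that held both KO-marrow groups, 6.07 for 1 treated against 2 untreated mice. The call held in 22 of 23 alternatives with WT marrow and, leaving aside slide 2 alone, in 23 of 23 with KO marrow. The exception was the block by slide without the dim array of treated WT-marrow mouse 3, at 7.27 (adjusted p = 0.0643). Over the alternatives the adjusted p ran from 0.00148 to 0.0643 with WT marrow and from 5.9e-05 to 0.0188 with KO marrow.

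Because Ly6d is also a gene of B lineage cells, their markers are given beside it. None of 8 B lineage markers passed the threshold in either comparison. Their changes ran from -2.04 (Cd79a) to 0.60 (Cd79b) with WT marrow and from -0.63 (Cd79a) to 0.70 (Ms4a1) with KO marrow. The medians were -0.90 and -0.15, against -0.24 and -0.11 over all genes. The summed signal of the 9 markers on the array spanned 1.00 to 2.66 in untreated WT-marrow, -0.12 to 2.06 in untreated KO-marrow, 0.58 to 2.34 in treated WT-marrow and 0.32 to 1.38 in treated KO-marrow mice, so that treated and untreated mice overlapped. Their median change with slide as a block was 1.62 and 1.12, against 0.47 and 0.44 over all genes, with no B lineage marker called. Markers of neutrophils moved with treatment, 6 of 8 rising in each comparison, against 3.60% and 1.85% of all genes called higher. Their summed signal was -2.33 to -0.43 in untreated and 3.47 to 6.97 in treated mice of both marrows, and their part in the Ly6d result was not tested. In scraped mucosa, more cells of a type and more RNA per cell cannot be told apart.

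**Figure D1:**
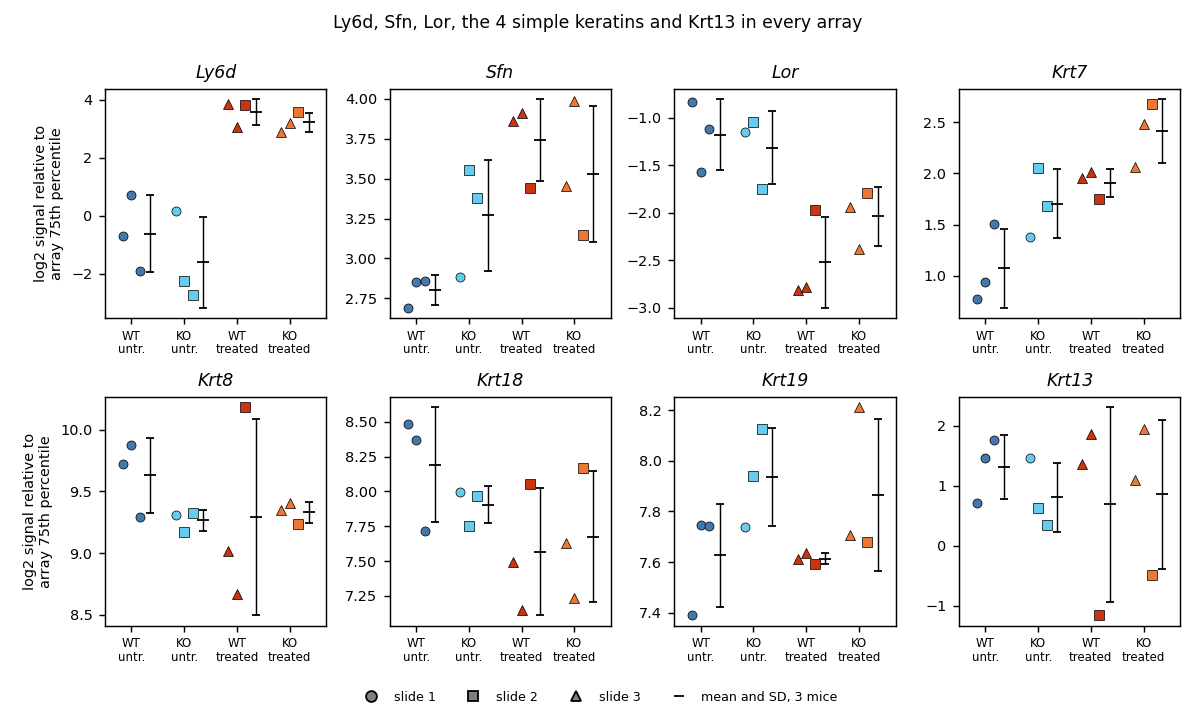
Log2 signal relative to the 75th percentile of the array (vertical axes, a different range in each panel) for 8 genes in the 4 groups, 1 point per mouse with its slide as the shape, and the mean with SD of 3 mice beside it. For Ly6d all 6 treated mice lie between 2.88 and 3.83 and all 6 untreated mice at 0.73 or below, whereas the groups of Krt8, Krt18, Krt19 and Krt13 overlap.

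Sfn, which encodes the cell-cycle protein 14-3-3 sigma of epithelial cells, was measured at 2.69, 2.85 and 2.86 in untreated and at 3.86, 3.91 and 3.44 in treated WT-marrow mice. In KO-marrow mice Sfn was at 2.88, 3.55 and 3.38 in untreated and at 3.45, 3.99 and 3.15 in treated mice. The WT-marrow groups did not overlap and the KO-marrow groups did. It rose by 0.94 ± 0.26 with WT marrow (adjusted p = 0.0365), and the change with KO marrow was 0.26 (adjusted p = 0.726). A second Sfn probe gave 1.12 and 0.43. The WT-marrow change with slide as a block was 0.01 (adjusted p = 0.988). Sfn is a target gene of p53. Over all genes, 3.60% were called higher and 10.2% lower with WT marrow. Of 11 other p53 target genes, Phlda3 rose in both comparisons (1.59 and 1.80) while Cdkn1a (-1.33) and Sesn2 (-1.65) fell in WT-marrow mice. With slide as a block these WT-marrow values were 2.13 for Phlda3, -1.21 for Cdkn1a and -0.22 for Sesn2, and all 3 lost their call (adjusted p from 0.180 to 0.859), while Phlda3 was still called with KO marrow (1.90, adjusted p = 0.0404).

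The 4 simple keratins were not called in any comparison with all 12 arrays and no block. Krt8, the type II keratin of colonocytes, was at 9.72, 9.88 and 9.29 in untreated and at 9.01, 8.67 and 10.18 in treated WT-marrow mice. The KO-marrow mice had Krt8 at 9.31, 9.17 and 9.32 in untreated and at 9.35, 9.41 and 9.24 in treated mice. Apart from the dim array, which gave the highest value, the treated WT-marrow mice were the lowest of all, and the other values lay between 9.17 and 9.88. Its partner Krt18 was at 8.49, 8.37 and 7.72 against 7.49, 7.15 and 8.06 in untreated and treated WT-marrow mice, and at 7.99, 7.75 and 7.97 against 7.63, 7.23 and 8.17 with KO marrow. The groups overlapped for both genes. The changes with WT marrow were -0.34 for Krt8 (adjusted p = 0.512) and -0.63 for Krt18 (adjusted p = 0.184). Without the dim array of treated WT-marrow mouse 3, where 32.2% of all genes were called, both were called lower, at -0.79 for Krt8 (adjusted p = 0.0227) and -0.87 for Krt18 (adjusted p = 0.0423). With slide as a block they were 0.13 and -0.001.

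Krt19, a type I keratin of simple epithelia, had the smallest range of the 4. It was at 7.39, 7.75 and 7.74 in untreated and at 7.61, 7.64 and 7.59 in treated WT-marrow mice, a change of -0.01 (adjusted p = 0.975). With KO marrow it was at 7.74, 7.94 and 8.13 in untreated and at 7.71, 8.21 and 7.68 in treated mice. Krt7 was the simple keratin whose groups did not overlap. It was at 0.77, 0.94 and 1.5 in untreated and at 1.95, 2.01 and 1.75 in treated WT-marrow mice, and at 1.38, 2.05 and 1.68 in untreated and 2.07, 2.49 and 2.68 in treated KO-marrow mice. Treated mice were above untreated mice of the same marrow in both comparisons, where 10.7% and 10.9% of all genes had non-overlapping groups with the treated higher. The changes of 0.83 ± 0.27 (adjusted p = 0.0560) and 0.71 ± 0.27 (adjusted p = 0.227) missed the threshold. Krt7 was called with WT marrow when treated WT-marrow mouse 3, untreated WT-marrow mouse 3 or untreated KO-marrow mouse 1 was left out (0.84 to 1.05), and its change with slide as a block was 0.40 (adjusted p = 0.683).

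The basal keratins of stratified epithelium were not called with either marrow, and 1 treated mouse stood apart in them. Krt5 was at -2.18, -2.07 and 0.23 in untreated and at -2.97, 1.93 and -1.31 in treated WT-marrow mice. With KO marrow it was at -0.55, -3.07 and -3.58 in untreated and at -2.86, -2.54 and -2.87 in treated mice. Treated WT-marrow mouse 2 had the highest Krt5 of the 12. Krt15, a keratin of basal and progenitor cells, was also highest in that mouse, at -0.55, against -2.63 and -2.0 in the other treated WT-marrow mice, -1.78, -2.22 and -2.44 in untreated WT-marrow mice, -2.20, -3.12 and -3.06 in untreated KO-marrow mice and -2.86, -3.26 and -2.0 in treated KO-marrow mice. Trp63, which did not pass the filter, was well above background on 2 arrays, both of treated WT-marrow mice. It was at -5.49, -1.90 and -6.81 in these mice, with mouse 2 again the highest, at -6.83, -5.92 and -7.88 in untreated WT-marrow, at -7.61, -5.84 and -7.93 in untreated KO-marrow and at -6.34, -6.84 and -6.81 in treated KO-marrow mice. A second Trp63 probe was well above background on 0 of 12 arrays.

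Krt14, the partner of Krt5, did not single that mouse out. It was at 0.07, 0.48 and -0.73 in untreated and at -1.47, 0.06 and -0.02 in treated WT-marrow mice, and at -0.60, -1.82 and -2.05 in untreated and -1.14, -0.82 and -0.97 in treated KO-marrow mice. All of these groups overlapped, and the treatment changes were 0.56 and -0.35 for Krt5, 0.42 and 0.09 for Krt15 and -0.41 and 0.51 for Krt14 with WT and KO marrow (adjusted p of 0.585 to 0.964). Krt17, a keratin of wounded and proliferating epithelium, was at -1.04, 0.42 and -1.65 against -1.48, -0.98 and -0.17 with WT marrow, and at -0.89, -1.51 and -1.73 against -0.73, -0.74 and -0.01 with KO marrow, untreated first. Its KO-marrow groups did not overlap, with a change of 0.89 ± 0.51 (adjusted p = 0.478).

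Krt6a and Krt6b are keratins of activated stratified epithelium. Krt6a did not pass the filter: it was well above background on 0 of 3 untreated WT-marrow, 1 untreated KO-marrow, 2 treated WT-marrow and 2 treated KO-marrow arrays. Its values were -7.35, -5.70 and -7.54 against -5.53, -5.12 and -4.77 with WT marrow and -5.67, -7.02 and -6.83 against -7.07, -5.04 and -5.55 with KO marrow, untreated first. Krt6b passed, at -2.51, -5.03 and -3.0 in untreated and -6.46, -5.73 and -3.87 in treated WT-marrow mice. The KO-marrow mice had Krt6b at -2.83, -5.34 and -5.37 in untreated and -7.21, -5.29 and -5.20 in treated mice. The groups of Krt6b overlapped with either marrow, with changes of -1.84 (adjusted p = 0.200) and -1.39 (adjusted p = 0.581).

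Of the suprabasal keratins, Krt13 was well above background on all 12 arrays. It was at 0.72, 1.46 and 1.75 in untreated and at 1.37, 1.86 and -1.16 in treated WT-marrow mice, and at 1.45, 0.63 and 0.34 in untreated and 1.10, 1.95 and -0.49 in treated KO-marrow mice. The treated mice on slide 2 were the lowest of the 12. The changes were -0.62 (adjusted p = 0.580) and 0.04 (adjusted p = 0.987), whereas a second Krt13 probe, well above background on 7 arrays, gave 0.44 and 1.00, so that the 2 probes disagree. Within slide 2 the used probe gave -0.98 for the 1 treated KO-marrow mouse against the 2 untreated ones.

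Krt4, the partner of Krt13, was well above background on 6 arrays, 3 of them untreated WT-marrow arrays, through which alone it passed. It was at -4.04, -3.90 and -4.69 in untreated and at -7.21, -6.95 and -5.10 in treated WT-marrow mice, a difference of -2.21 (adjusted p = 0.0713). With KO marrow it was at -4.47, -6.67 and -6.70 in untreated and at -6.27, -6.84 and -5.93 in treated mice, where untreated mouse 1, on slide 1, was at the level of the untreated WT-marrow mice. Krt10 was likewise high in that mouse, at -1.23, -1.47 and -2.60 against -4.55, -4.82 and -2.23 with WT marrow and at -1.57, -3.40 and -3.78 against -4.51, -4.02 and -3.10 with KO marrow, untreated first. Its changes were -2.10 (adjusted p = 0.0778) and -0.95 (adjusted p = 0.642). Krt1, its partner in the epidermis, did not pass the filter and was well above background on 5 arrays. It was at -6.89, -7.33 and -3.89 in untreated WT-marrow, -5.46, -7.12 and -6.60 in untreated KO-marrow, -7.75, -6.48 and -5.01 in treated WT-marrow and -8.09, -6.63 and -5.78 in treated KO-marrow mice.

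Krt76, a keratin of the oral epithelium, and Krt35, a hair keratin, fell in WT-marrow mice. Krt76 was at -1.66, -2.48 and -3.23 in untreated and at -6.36, -6.36 and -5.03 in treated WT-marrow mice, and at -2.40, -5.50 and -5.75 in untreated and -6.26, -6.14 and -5.52 in treated KO-marrow mice. Krt35 was at -2.63, -2.95 and -3.21 in untreated and at -5.09, -5.38 and -4.78 in treated WT-marrow mice, and at -2.80, -5.33 and -4.28 in untreated and -4.82, -4.77 and -5.06 in treated KO-marrow mice. For both genes the high values were those of the 4 arrays of slide 1, which holds untreated mice only. The changes with WT marrow were -3.46 ± 0.83 for Krt76 (adjusted p = 0.0236) and -2.15 ± 0.60 for Krt35 (adjusted p = 0.0359). Krt76 passed the filter only through the untreated WT-marrow group, in which it had to be bright. Blocked by slide the changes were 0.43 and -0.08, and with another background correction (normexp) 0.19 and 0.51, none past the threshold.

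The same direction was seen in the stratified and hair keratins as classes. Their changes ran from -3.73 (Krt2) to 1.13 (Krt12) for stratified and from -2.58 (Krt34) to -0.005 (Krt71, an inner root sheath keratin) for hair keratins with WT marrow. With KO marrow they ran from -1.42 (Krt76) to 0.94 (Krt84, a keratin of nail and tongue that was listed as stratified) and from -0.99 (Krt87) to -0.24 (Krt27). Of the 43 members, 3 had treated WT-marrow mice all above and 11 all below the untreated ones, against 10.7% and 22% of all genes. The 11 include Krt4, Krt27, Krt76 and Krt222, for which the filter favoured this direction, as they passed only through untreated WT marrow. With KO marrow these were 7 and 3 members, against 10.9% and 12.2%. Blocked by slide, 1 member (Ly6d, higher) was called with WT marrow, beside 0.535% of all genes, and 2 (Ly6d and Krt84, both higher) with KO marrow, beside 7.26%. In WT-marrow mice 14 of 17 stratified keratins and 7 of 7 hair keratins had a negative change, with medians of -0.70 and -2.15 against -0.24 over all genes. Genes that passed the filter only through the untreated WT-marrow group had to be high there. Without these, 11 of 14 stratified and 6 of 6 hair keratins were negative, with medians of -0.52 and -1.40. With slide as a block, 15 of the 17 and 4 of the 7 had a positive one, with medians of 1.20 and 0.37 against 0.47 over all genes. In KO-marrow mice the medians were -0.34 and -0.74 without the block (0.03 and -0.78 also without the genes that passed only through untreated WT marrow) and 0.92 and 0.90 with it. The direction of these classes thus turned with the handling of slide. The median of all genes turned as well, from -0.24 to 0.47 with WT and from -0.11 to 0.44 with KO marrow. No slide gives a within-slide value for treatment with WT marrow. The simple keratins had medians of -0.18 and -0.003 without the block and 0.06 and 0.40 with it. The number of members called with WT marrow followed single arrays: it was 19 without treated WT-marrow mouse 3 (32.2% of all genes called), 13 without untreated KO-marrow mouse 1 (19.7%), 3 without treated KO-marrow mouse 1 (8.87%), and 1, Ly6d, without untreated WT-marrow mouse 1 (2.05%) or 2 (2.20%) or treated WT-marrow mouse 1 (2.11%) or 2 (5.39%).

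**Figure D2:**
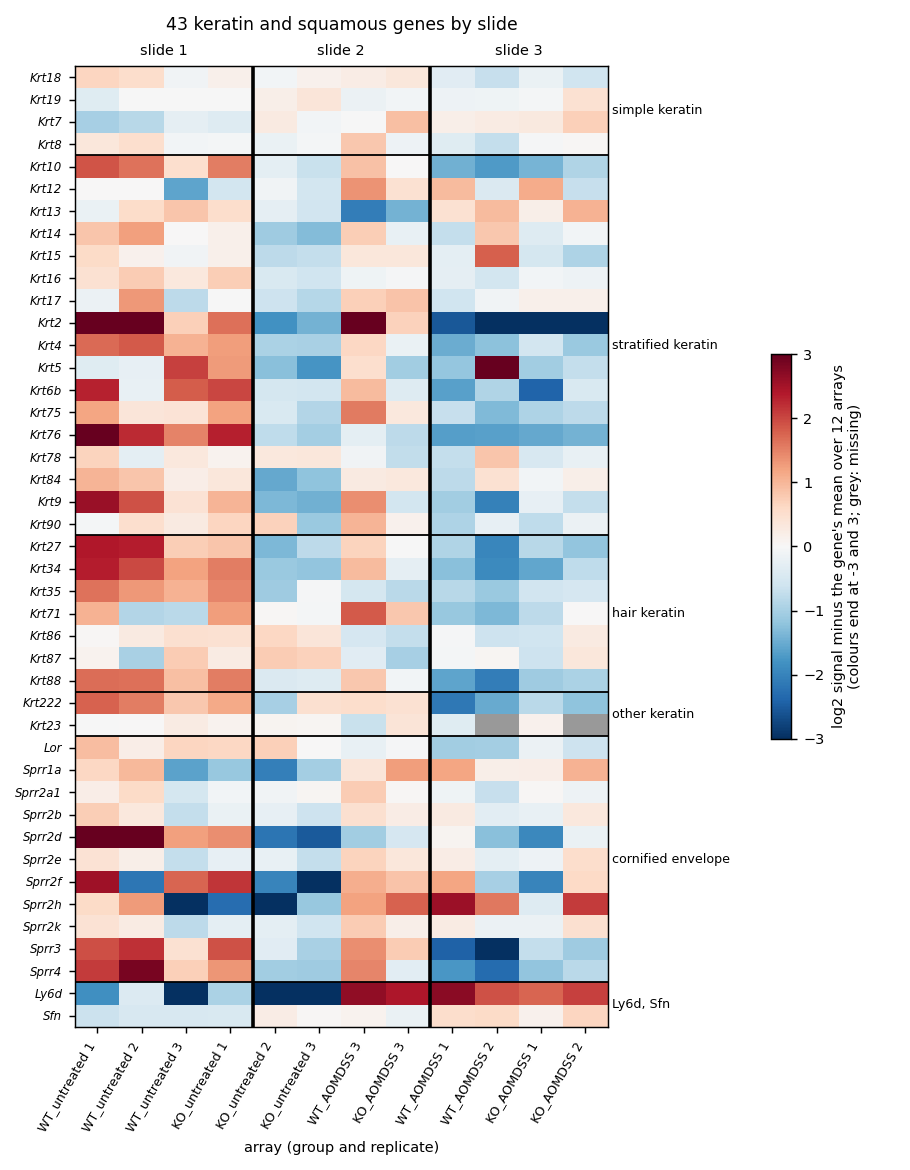
Log2 signal of each of the 43 members past the filter (rows, by class) minus its mean over 12 arrays, in colour from -3 to 3, with the arrays (columns) ordered by slide and grey for a missing value. Most squamous rows are red on slide 1 and blue on slide 3, WT_AOMDSS 3 on slide 2 is red in many of them, and Ly6d is red on the 6 treated arrays instead.

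**Figure D3:**
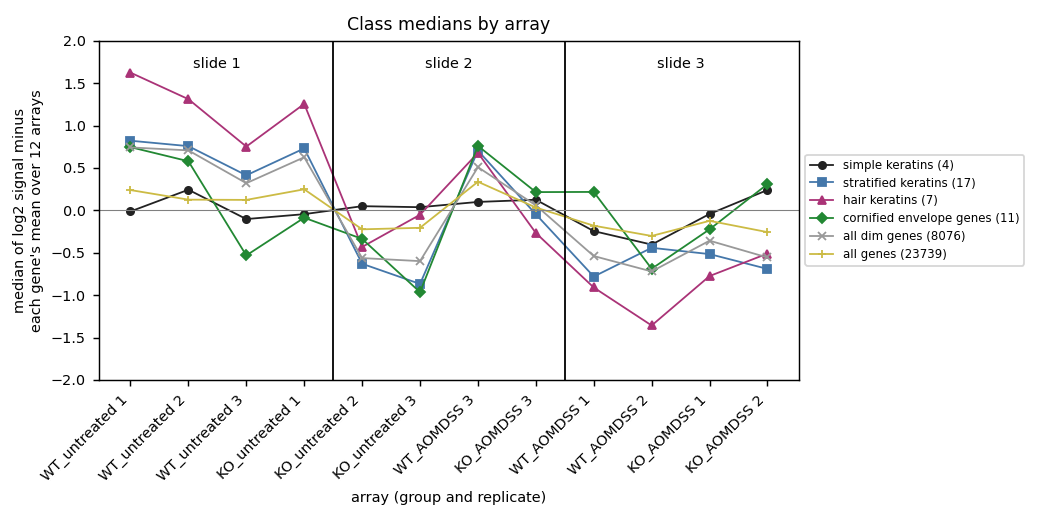
Median over the genes of a class of the log2 signal minus the gene's mean over 12 arrays (vertical axis), for each array (horizontal axis, by slide), with the number of genes in the legend. The hair keratins run from 1.62 on WT_untreated 1 to -1.36 on WT_AOMDSS 2, all 8076 genes that were not well above background everywhere follow the same course with a smaller span, and the simple keratins stay between -0.40 and 0.24.

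The class medians by array show the same. The 19 squamous genes that were not well above background everywhere had medians of 1.92, 1.53 and 0.74 in the untreated WT-marrow mice and 1.26, -1.01 and -0.96 in the untreated KO-marrow mice. Of these 19, 6 passed the filter only through the untreated WT-marrow group, where they had to be bright, which favours high medians in that group. In treated mice the medians were -1.05, -1.31 and 0.95 with WT marrow and -0.78, -0.70 and -0.20 with KO marrow. The high ones were the 4 arrays of slide 1 and the dim array of treated WT-marrow mouse 3. The 8076 genes of the same kind over the whole array had medians of 0.74, 0.71 and 0.32, 0.63, -0.56 and -0.60, -0.54, -0.72 and 0.51, and -0.36, -0.56 and 0.06 in the same order of groups. The 20 squamous genes well above background on all arrays spanned -0.69 to 0.58. What share of these class medians comes from slide was not tested.

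**Figure D4:**
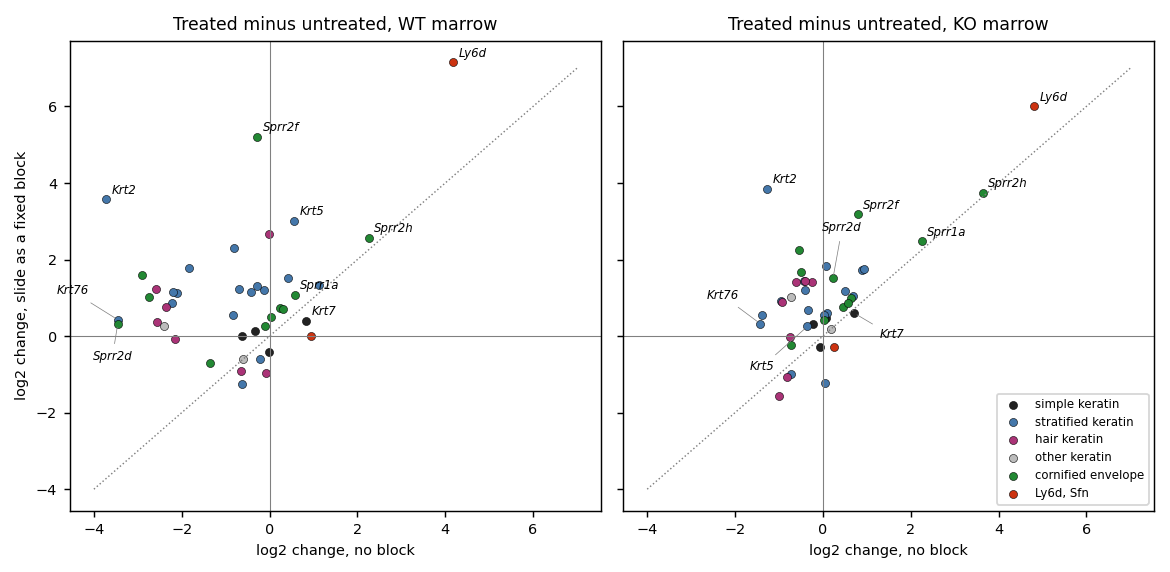
Log2 change, treated minus untreated, without a block (horizontal axes) and with slide as a fixed block (vertical axes) for the 43 members with WT marrow (left) and KO marrow (right), 1 point per gene coloured by class, with the dotted line marking equal values. Ly6d lies at the top right in both panels. In the WT-marrow panel most stratified and hair keratins lie left of 0 without the block and above 0 with it. In the KO-marrow panel 9 of 17 stratified and 7 of 7 hair keratins lie left of 0 without the block, and 15 and 4 lie above 0 with it.

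Of the 11 cornified envelope genes past the filter, 2 fell with WT marrow, Lor and Sprr2d, beside 10.2% of all genes called lower. None was called with KO marrow, beside 3.16% of all genes. Lor, the main protein of the epidermal envelope, was at -0.84, -1.57 and -1.12 in untreated and at -2.81, -2.79 and -1.98 in treated WT-marrow mice. In KO-marrow mice Lor was at -1.15, -1.04 and -1.75 in untreated and at -1.94, -2.38 and -1.79 in treated mice. Treated mice were below untreated ones with both marrows, where 22% and 12.2% of all genes had non-overlapping groups with the treated lower. The fall with WT marrow was -1.35 ± 0.37 (adjusted p = 0.0359) and the difference with KO marrow -0.72 (adjusted p = 0.415). Blocked by slide these were -0.70 (adjusted p = 0.562) and -0.24, and with normexp the WT-marrow value was 0.12.

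The Sprr genes, which encode flexible cross-linking proteins of the envelope, split into several patterns. Sprr2d was at 0.91, 0.23 and -1.65 in untreated and at -2.80, -4.15 and -3.93 in treated WT-marrow mice, and at -1.50, -5.08 and -5.40 in untreated and -4.81, -3.09 and -3.39 in treated KO-marrow mice. The values of slide 1 were again the high ones. Sprr2d fell by 3.46 with WT marrow (adjusted p = 0.0357), while its change was 0.23 with KO marrow and 0.32 with WT marrow when slide was a block.

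Sprr2h went the other way. It was at -1.12, -0.42 and -4.98 in untreated and at 0.86, -0.11 and -0.49 in treated WT-marrow mice, and at -3.97, -5.72 and -2.82 in untreated and -2.08, 0.41 and 0.06 in treated KO-marrow mice. Its KO-marrow groups did not overlap. The changes were 2.26 ± 1.07 (adjusted p = 0.161) and 3.64 ± 1.07 (adjusted p = 0.10), and 2.57 and 3.75 with slide as a block. Sprr2h was called in both comparisons with normexp (1.82, adjusted p = 0.0428, and 2.27, adjusted p = 0.0113). Sprr1a, at 1.31, 1.66 and -0.91 against 1.88, 0.87 and 1.04 with WT marrow, untreated first, had overlapping groups there. With KO marrow it was at -0.46, -1.38 and -0.35 in untreated and at 0.89, 1.73 and 1.95 in treated mice, which did not overlap. That change was 2.25 ± 0.58 (adjusted p = 0.0566), 2.48 with slide as a block (adjusted p = 0.0774), 1.89 with normexp (adjusted p = 0.0227) and 2.81 within slide 2, for 1 treated against 2 untreated mice.

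Sprr2a1, Sprr2b, Sprr2e and Sprr2k were well above background on all arrays, and none was called. Their changes were -0.10, 0.02, 0.23 and 0.32 with WT marrow and 0.02, 0.46, 0.63 and 0.56 with KO marrow (adjusted p of 0.431 to 0.984). Sprr2e and Sprr2k had non-overlapping KO-marrow groups, the treated being higher. Over the 12 arrays, which share slides and groups, Pearson's r was 0.94 to 0.98 among Sprr2b, Sprr2e and Sprr2k and 0.28 between Sprr2d and Sprr2e, whose promoters above were the most alike. Sequences of the probes and transcripts were not compared, so whether a probe also picks up related Sprr2 transcripts was not tested. Sprr2f, seen well above background on 8 arrays, ranged from -7.90 to -2.31, with changes of -0.29 and 0.79. Sprr3 passed only through the untreated WT-marrow group, at -4.37, -4.10 and -5.83, and was at -8.72, -9.41 and -4.90 in treated WT-marrow mice, none of whose arrays was well above background. These groups overlapped, and the treated mean was at least 2.97-fold lower (adjusted p = 0.101), whereas the change with slide as a block was 1.59 (adjusted p = 0.514).

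**Figure D5:**
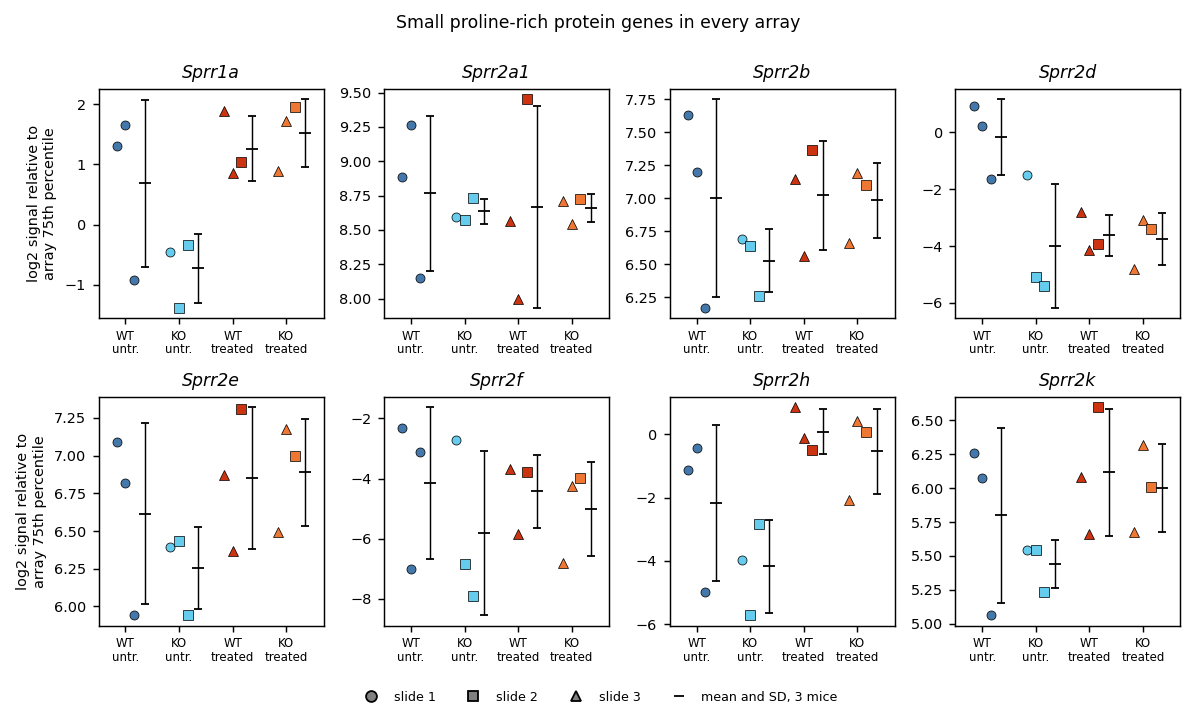
Log2 signal relative to the 75th percentile of the array (vertical axes, a different range in each panel) for 8 Sprr genes in the 4 groups, 1 point per mouse with its slide as the shape, and the mean with SD of 3 mice beside it. Sprr2h and Sprr1a are higher in all 3 treated than in all 3 untreated KO-marrow mice, whereas Sprr2d is highest on slide 1 and Sprr2a1 has overlapping groups.

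Krt23, a type I keratin of glandular epithelium, was missing in treated WT-marrow mouse 2 and treated KO-marrow mouse 2, whose spots were marked as outliers, so that its values rest on 10 arrays. Its changes were -0.60 ± 0.24 (adjusted p = 0.108) and 0.18 ± 0.24 (adjusted p = 0.799). Krt2, an epidermal keratin, had the widest range of the members, from -9.42 to -0.14, and was well above background on 7 arrays. Its changes were -3.73 and -1.27 without a block and 3.57 and 3.85 with it, none past the threshold.

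The authors' deposited table held 4 of the 61 member probes, each as a group mean relative to the median of that probe. In the authors' deposited table Ly6d was at -2.45 and -3.42 in untreated and at 1.76 and 1.41 in treated mice with WT and KO marrow. In the authors' deposited table Sprr2h was at -1.38 and -3.37 in untreated and at 0.91 and 0.28 in treated mice, Sprr1a at -0.30 and -1.70 against 0.30 and 0.56, and the second Krt13 probe at 0.11 and -0.88 against 0.58 and 0.13.

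The other question was whether the donor marrow mattered. In treated mice, 0 members and 0 of all genes were called between KO and WT marrow (limma), while 1 member, Krt23, had an unadjusted p under 0.05 (0.78 ± 0.26), against 0.973% of all genes. The 4 simple keratins had small positive differences (0.04 to 0.51, median 0.18). Krt7 (0.51, adjusted p = 1) and Krt19 (0.25, adjusted p = 1) were higher in all 3 treated KO-marrow than in all 3 treated WT-marrow mice, and 1.53% of all genes had such groups. No member had all 3 lower, as 1.09% of all genes did. The squamous genes had a median of -0.01, with 18 of 39 positive. As both slides with treated mice held both marrows, the block by slide left these values as they were.

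In untreated mice 0 members were called between the marrows, and 0 of all genes (limma), with 11 members at an unadjusted p under 0.05, against 12.3% of all genes. The squamous genes had a median of -1.0 with 33 of 39 negative in KO-marrow mice, against -0.18 over all genes, and the simple keratins a median of 0.01. Of these squamous genes, 6 passed the filter only through the untreated WT-marrow group (Krt2, Krt4, Krt27, Krt76, Krt222 and Sprr3). As they had to be bright there, the filter favoured negative differences for them, and the counts of this comparison include them. Sfn alone had non-overlapping groups, higher with KO marrow, as 6.17% of all genes did, and no member had them lower, as 6.57% of all genes did. The 11 cornified envelope genes were all negative (-3.83 to -0.13), Sprr2d being the lowest. With slide as a block, the median of the squamous genes was -0.05 with 20 of 39 negative, and that of the cornified envelope genes -0.26. Without untreated KO-marrow mouse 1, the one KO-marrow mouse on slide 1, 6 members were called, all lower with KO marrow (Krt14, Krt34, Krt35, Krt76, Krt84 and Sprr2d), beside 7.01% of all genes. Within slide 1 none was called.

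The treatment effect was not shown to differ between the marrows. The interaction gave 0 called members and 0 called genes (limma), with 3 members at an unadjusted p under 0.05, against 3.49% of all genes. These were Sprr2d (3.69), Krt84 (1.65) and Krt23 (0.78), each with an adjusted p of 0.897. For Ly6d the interaction was 0.63.

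Genes of the structures that squamous cells build were read from lists. Over all genes, 10.2% were called lower with WT marrow and 1.31% with KO marrow. Of 12 desmosome genes, which tie keratin filaments from cell to cell, Dsg1b (-2.94) and Cdsn (-1.99) fell with WT marrow and none was called with KO marrow. Of 16 cornification genes, Lce3c (-3.90), Lce1c (-2.78) and Lce1b (-2.08) fell with WT marrow and none was called with KO marrow. The median of this list was -1.29 without and 0.81 with slide as a block, and none of these 5 genes was called with the block. Other genes of both lists were called with it, as were 0.535% of all genes with WT and 7.26% with KO marrow. Dsg2, a desmosomal cadherin, was lower with both marrows (-2.06 and -1.05). With KO marrow Jup, which encodes plakoglobin, was lower (-1.73), and of the cross-linking transglutaminases Tgm1 was higher (3.35) and Tgm3 lower (-4.20). Of 11 transcription factors of squamous cells, Klf4, which is also a factor of differentiated colonocytes, fell with WT marrow (-1.16, adjusted p = 0.0430), though its groups overlapped and the value with slide as a block was -0.59 (adjusted p = 0.586). Sox2 was well above background on 0 of 12 arrays. Of the 10 colonocyte markers, Slc26a3, the chloride exchanger of the colon surface, fell with both marrows (-2.38 and -3.04), and with slide as a block the values were -1.97 (adjusted p = 0.116) and -2.46 (adjusted p = 0.00328). Cdx1, another of the colonocyte markers, was called with KO marrow only when slide was a block (-2.60, adjusted p = 0.00627, limma). No mesothelial, melanocyte or smooth muscle marker was called in the treatment comparisons without a block, of 3, 2 and 7 past the filter. With the block, the smooth muscle marker Actg2 was called lower with KO marrow (-1.745, adjusted p = 0.0263, limma).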

How the data were processed

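RNA from the colon mucosa of 12 mice was labelled with Cy3 and hybridised to single-colour Agilent mouse arrays (design 014868). Per the file headers, the deposited files are the output of Feature Extraction 10.7.3.1 and hold background-corrected linear spot intensities. A deposited table gives log2 group values of 2506 probes. Compared with the arrays, these values track each group's mean after subtracting the probe's median over 12 arrays (r of 0.995 to 0.998 across probes, slope 0.982 to 1.01, column medians -0.18 to 0.11); the sources used here do not say how the probes were picked.

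The 43379 gene spots, of 45018 in all, were put on a log2 scale and the 75th percentile of their array was subtracted. Spots marked as outliers were set to missing, and spots of a probe were averaged (41174 probes). The files give accessions and no gene names. Accessions were matched, without versions, to RefSeq genes (GRCm38.p6, for names and promoters), which named 24387 probes of 17026 genes; other keratins and Sprr genes were not analysed here. Probes had to be well above background on all 3 arrays of a group (30210 probes), and the brightest stood for a gene (23739 genes, 1578 with a missing value). A mean for each of 4 groups was fitted with limma 3.58.1 in R 4.3.3 (lmFit, eBayes with an intensity trend, 8 residual degrees of freedom), for 5 comparisons, with Benjamini-Hochberg adjustment over all genes and a threshold of 0.05. A lower bound of a fold is the mean of the bright group against, per dim array, the higher of its lowest signal well above background and the probe's own.

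Alternatives were quantile normalization, normexp (offset 50, on the median signals, as the files hold no mean signal), other filters, all probes of a gene, no trend, only 2 groups, slide as a fixed or random block (correlation 0.503), slides alone, the replicate number as a block, each mouse left out, and, chosen after seeing the data, the slide block without the dim array. Tested on simulated data for treatment with WT marrow, over 23739 genes, the fit called 7.58% of genes changed by 1 on the log2 scale, 46.7% by 2 and 78.0% by 4. The simulated arrays had independent noise and no slide effect, and only 66, 75 and 59 genes were changed by these sizes. The shares therefore need not hold for the real arrays, where slide and treatment go together. The number of arrays limits the precision. Nothing in the labels says that the mice of a group differ in litter or cage. In the fit without a block, p-values measure the spread between arrays within groups, pooled over the 4 groups. That spread mixes differences between mice with differences between slides. The members and lists were chosen with earlier results of these data known. By the rule for named genes, all values are given for the simple keratins, for Krt1, Krt4, Krt5, Krt6a, Krt6b, Krt10, Krt13, Krt14, Krt15, Krt17 and Trp63, and for every member past the threshold, and of other lists up to 4 called genes are named. Others appear at the ends of a class or were chosen after their values were seen. One list of adhesion genes is not reported here.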

Additional observations from a re-analysis of the deposited data

Results flagged for a closer look

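Krt84, a keratin of nail and tongue, had changes of opposite sign with the 2 marrows (-0.70 with WT, adjusted p = 0.322, and 0.94 with KO, adjusted p = 0.399, limma), so that its treatment effect with KO marrow minus that with WT marrow was 1.645 (adjusted p = 0.897, limma). Each treated WT-marrow mouse was below the mean of the untreated WT-marrow mice, and each treated KO-marrow mouse was above the mean of the untreated KO-marrow mice. Untreated KO-marrow mice 2 and 3, on slide 2, were at -2.15 and -1.82 and mouse 1, on slide 1, at -0.28. With slide as a block both changes were positive, 1.24 (adjusted p = 0.347) with WT and 1.75 (adjusted p = 0.0414) with KO marrow, and their difference was 0.51.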

How the results depend on the processing

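With WT marrow 6 members were called. The count was 2 with normexp (Ly6d and Sprr2h, beside 3.61% of all genes). It was 3 with probes well above background on all 12 arrays (11.5%) and 3 with only the 2 groups fitted (5.59%). It was 1 with slide as a fixed (0.535%) or a random block (0.746%). It was 0 with the slide block without the dim array (0.195%), and 1 to 19 with 1 mouse left out (2.05% to 32.2%). With KO marrow (1 called), 3 were called with normexp (2.38%), 3 with only the 2 groups (4.14%), 2 with slide as a fixed block (Ly6d and Krt84, 7.26%), 16 within slide 2, where 26.4% of all genes were called from 1 treated against 2 untreated mice, and 1 to 3 with 1 mouse left out; the 2 and 3 came without untreated WT-marrow mouse 2 (2) or 3 (3) or treated WT-marrow mouse 3 (2). Between the marrows 0 to 6 were called with 1 mouse left out in untreated mice, the 6 without untreated KO-marrow mouse 1 (7.01%). In treated mice and for the interaction, 0 were called in every alternative run. Slide as a fixed block turned the sign of 23 of 43 members with WT marrow and 18 with KO marrow. It turned the median of all genes too, from -0.24 to 0.47 with WT and from -0.11 to 0.44 with KO marrow. The share of all genes that turned was not counted. Among the members named by rule, the values called in either fit that turned were Krt35 (0.51), Krt76 (0.19) and Lor (0.12) with normexp, Krt76 (0.43) and Sprr2d (0.32) with the slide block, Sprr2d (1.00) and Sfn (-0.074) with that block without the dim array, all with WT marrow, and Krt13 with KO marrow within slide 2 (-0.98); the cause was not tested. Over the alternatives the called members kept their call 103 times and lost it 49 times beside the 7 turned values; of the other single genes and class medians 1818 values stayed, 150 moved and 17 gained a call. The numbers do not pair the mice: deviations of same-numbered mice correlated at -0.39 to 0.51 over 18 pairs, 7 of them over 0.1. With the replicate number as a block, 5 members were called with WT marrow (9.81% of all genes) and 1 with KO marrow (3.01%). In the other comparisons 0 were called. Signal near background limits the 19 squamous genes not well above background everywhere.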
